A study of Mus musculus with 14 samples.

Results

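Ifitm1, Ifitm2 and Ifitm3 encode interferon-induced transmembrane proteins and lie side by side on mouse chromosome 7. They are described here in the RNA, microRNA-bound RNA and histone mark libraries of a mouse cell line. The members were selected on measured values of these same libraries, their RNA-seq, pulldown and peak values in miR-93-5p cells against control, and were located by coordinates. They are 3 of the 18479 protein-coding genes placed on mm9 and 3 of the 7 Ifitm genes in the gene table. Because these values chose the genes, the levels and ratios below are a description and carry no test.

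The study measured a C57BL/6 line that the labels call LEPC, at 3 passages, grown with serum. The 3 conditions were a control labelled scr, cells overexpressing miR-93-5p, and cells overexpressing a mutated miR-93-5p, called mutant below. The labels give neither the mutated bases nor the vector, and do not say whether a line was 1 clone. Each condition had 1 RNA-seq library and 1 library of mRNA bound to the microRNA, called the pulldown. Biotin is mentioned by the series text for 1 group, that of miR-93-5p. H3K4me3, H3K27me3 and H3K9me3 were measured by chromatin immunoprecipitation in scr and miR-93-5p cells alone, with 1 library each. The 2 input samples were not analysed here. There is therefore no replicate error, no p-value is given, and every difference is one between 2 libraries.

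IFITM proteins are small membrane proteins of the cell surface and of endosomes. They are best known for stopping enveloped viruses from fusing with the membranes of the cell, and IFITM3 acts mainly in late endosomes. Interferon raises their transcription through elements bound by STAT and IRF factors, and many cell types also make IFITM mRNA without interferon. H3K4me3 marks the starts of active or poised genes, H3K27me3 marks Polycomb repression, and H3K9me3 marks heterochromatin. miR-93-5p belongs to the miR-17 family of microRNAs and lowers the level or translation of mRNAs pairing with its seed, the bases near its 5′ end.

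The microRNA that was overexpressed is shown first, because both the cells and the pulldown depend on it. It has 23 bases and is encoded on the minus strand at chr5:138165574-138165596 of GRCm38.p6, per RefSeq. Capitals mark the seed, bases 2 to 8, which 7 mature mouse microRNAs in the RefSeq table share, among them miR-17-5p, miR-20a-5p and miR-106b-5p.
mmu-miR-93-5p: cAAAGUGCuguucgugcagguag

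The starts of the 3 genes are shown because their H3K4me3 peaks are described below. Each line gives 250 bases before and 30 bases after a RefSeq start on GRCm38.p6, 5′ to 3′ on the strand of the gene. Capitals mark matches to GAAANNGAAA on either strand, the core of the interferon-stimulated response element, here called ISRE-like. The first window is at chr7:140967826-140968105 on the plus strand, the second at chr7:140955932-140956211 on the minus strand and the third at chr7:141010715-141010994 on the minus strand.
Ifitm1 start: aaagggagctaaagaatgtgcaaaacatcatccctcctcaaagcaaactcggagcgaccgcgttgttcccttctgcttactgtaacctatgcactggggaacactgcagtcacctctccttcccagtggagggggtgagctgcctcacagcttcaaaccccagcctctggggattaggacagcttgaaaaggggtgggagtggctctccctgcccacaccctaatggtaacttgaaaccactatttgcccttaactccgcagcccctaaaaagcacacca
Ifitm2 start: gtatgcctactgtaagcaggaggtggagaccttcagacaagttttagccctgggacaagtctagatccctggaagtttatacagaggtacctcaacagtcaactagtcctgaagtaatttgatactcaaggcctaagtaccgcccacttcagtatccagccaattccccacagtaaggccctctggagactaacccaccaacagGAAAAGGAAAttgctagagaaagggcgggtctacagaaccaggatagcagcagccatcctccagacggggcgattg
Ifitm3 start: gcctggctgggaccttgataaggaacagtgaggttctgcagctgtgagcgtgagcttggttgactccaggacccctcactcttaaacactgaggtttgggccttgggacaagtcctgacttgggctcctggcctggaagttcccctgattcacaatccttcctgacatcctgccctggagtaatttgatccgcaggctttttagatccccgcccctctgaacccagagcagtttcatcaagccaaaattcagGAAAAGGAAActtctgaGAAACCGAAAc

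In the 300-base windows of the RefSeq table, which reach 50 bases past the start, Ifitm3 held 2 ISRE-like matches, at bases 3 to 12 and 20 to 29 after its start. Ifitm2 held 1, at bases -46 to -37 relative to its start. Ifitm1 held none, and neither did the windows of Ifitm5, Ifitm6, Ifitm7 and Ifitm10. Such a match stood in 3.44% of the 32851 windows of all genes (1131 windows) and in 17 of the 57 windows (29.8%) of a list of interferon-response genes that includes no Ifitm gene. The match in Ifitm2 and the earlier of the matches in Ifitm3 have the same 10 letters, GAAAAGGAAA. They lie in a run of 13 identical bases, the longest that any pair of the 3 windows shares.
Shared run of Ifitm2 and Ifitm3: caggaaaaggaaa
The longest run shared with Ifitm1 was 8 bases for either of the others. A GAS-like match, TTCNNNGAA, which reads the same on both strands, was found once in Ifitm3 at bases 14 to 22 and overlaps its later ISRE-like match. It was found in neither Ifitm1 nor Ifitm2, and in 8.30% of all windows. A GC box, GGGCGG on either strand, was found 2 times in Ifitm2, once in Ifitm3 and not in Ifitm1, against 35.7% of all windows. CCAAT and TATAAA, also searched on both strands, were each found once in Ifitm2 alone of the 3, against 37.4% and 13.6% of all windows. The windows held 5, 4 and 5 CG pairs for Ifitm1, Ifitm2 and Ifitm3, against a median of 7, and 51.3%, 49.7% and 53.0% G or C, against a median of 52.7%. The absence of a match says only that these letters are not in the window.

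The RefSeq start was compared with the ends of the pulldown loci, which lie on the same build. The locus of Ifitm1 began 30 bases before its RefSeq start in scr and 13 before it in mutant, and 62 after it in miR-93-5p. That of Ifitm3 began 26, 12 and 53 bases before the start in scr, miR-93-5p and mutant. The loci of Ifitm2 reached 372, 356 and 390 bases before the RefSeq start. The Ifitm2 window above, with its ISRE-like match, therefore lies inside the assembled locus of all 3 libraries.

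The deposited RNA values are FPKM, fragments scaled by transcript length and by the size of the library, each with a lower and an upper bound that covers the error of that library alone. The RNA-seq libraries held 16822 to 18328 loci, whose bounds imply 14589704 to 19513879 fragments, and the pulldown libraries 14815 to 18031 loci and 3814082 to 5855469 fragments. Of 8 liver epithelium markers, 8, 6 and 7 had an RNA-seq locus in scr, miR-93-5p and mutant, with summed levels of 1649, 858 and 1094 FPKM, nearly all from the keratins Krt8, Krt18 and Krt19. In the same list Hnf4a stood at 40.6, 7.22 and 27.4 FPKM and Cdh1 at 30.7, 1.52 and 3.87, which the sum does not show. The leukocyte genes Ptprc, Lyz2, Adgre1 and Cd3e and the 4 endothelial markers had no locus in any RNA-seq library. Cd68 and Csf1r did, with a sum of 18.5, 200 and 943 FPKM over these 2 leukocyte markers. Loci over Csf1r made up 16.9, 11.7 and 13.6 FPKM of it, of which 9.28, 9.39 and 9.85 FPKM lay in a locus that also spans Hmgxb3. The locus matched to Csf1r stood at 7.63, 1.16 and 1.82 FPKM. Cd68 made up 1.56, 188 and 930 FPKM of the sum, in a locus of 2524, 8132 and 32382 bp over a gene of 1941 bp, so the locus reaches beyond Cd68. Of 6 fibroblast and stellate cell markers, 1, 1 and 0 had a locus, with summed levels of 1.47, 2.15 and 0 FPKM. The part of these differences in the Ifitm values was not tested.

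Ifitm1 was low in scr and high in miR-93-5p (Ifitm levels in the plot by library). Ifitm1 (mm9 chr7:148153120-148155724, plus strand) had a scr level of 5.41 FPKM (bounds 4.19 to 6.63), a miR-93-5p level of 163 (154 to 172) and a mutant level of 22.9 (20.5 to 25.4). The bounds of the 3 libraries do not overlap, and mutant lies between the other libraries. In bulk libraries, more cells with the mRNA and more mRNA per cell cannot be told apart. Among 8420 genes compared in all 3 libraries its rank from the top was 7009 in scr and 364 in miR-93-5p, with 3176 in mutant.

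Ifitm2 was already abundant in scr. Ifitm2 (chr7:148140736-148141882, minus strand) stood at 153 FPKM in scr, 253 (246 to 260) in miR-93-5p and 111 (107 to 115) in mutant, and its rank went from 362 to 224 and 570. The scr bounds, 0 to 299982, are too wide to use, so no error can be given for that value. The miR-93-5p level lies above the mutant level beyond the bounds of both.

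Ifitm3, the member best known for restricting influenza virus, ranked by FPKM between the others in scr and highest of the 3 in miR-93-5p. Ifitm3 (chr7:148195485-148196669, minus strand) stood at 84.1 FPKM (79.4 to 88.8) in scr, 293 (279 to 308) in miR-93-5p and 68.8 (65.7 to 71.9) in mutant, with ranks of 773, 191 and 1018. The miR-93-5p library is the high one and the bounds of the 3 do not overlap. Per length, the order was Ifitm2, Ifitm3, Ifitm1 in scr and mutant and Ifitm3, Ifitm2, Ifitm1 in miR-93-5p. Neighbours in these orders lie apart beyond their bounds, except Ifitm2 and Ifitm3 in scr, where Ifitm2 has no usable bounds. Mouse Ifitm genes are similar in their coding sequence, and how reads that fit more than 1 of them were assigned is not given in the sources used here. The values of Ifitm2 and Ifitm3 are uncertain to that extent.

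**Figure D1:**
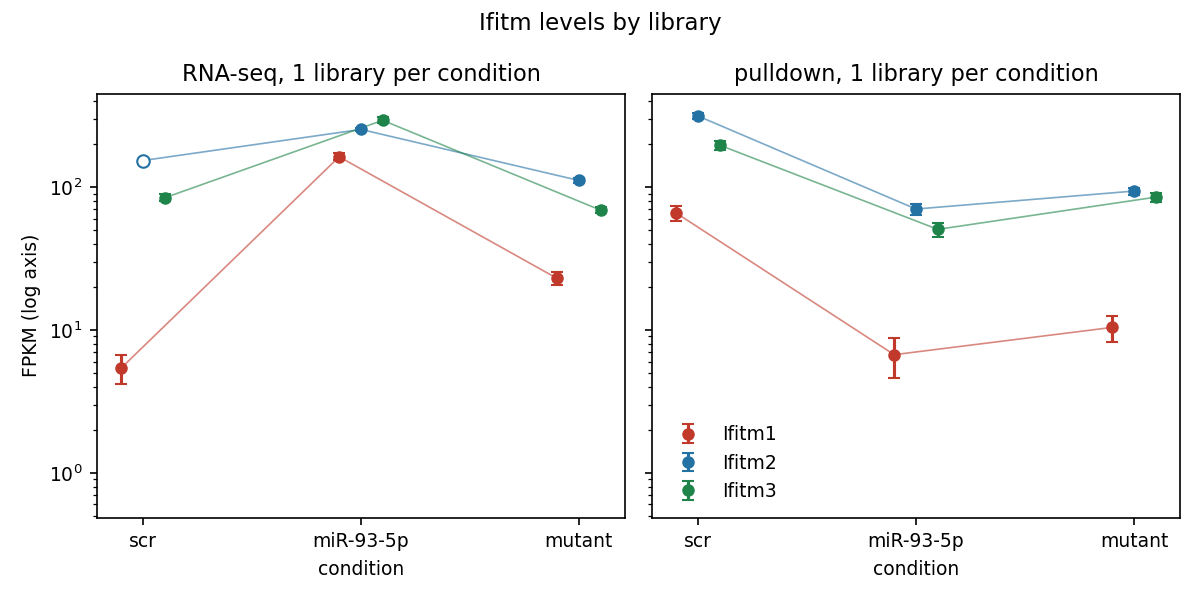
FPKM (log axis) of Ifitm1, Ifitm2 and Ifitm3 in each RNA-seq library (left) and each pulldown library (right), with the deposited lower and upper bounds as bars. The open circle is Ifitm2 in scr RNA-seq, whose bounds cannot be used, and the lines only join values of 1 gene: all 3 are highest in miR-93-5p in RNA-seq and highest in scr in the pulldown.

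As ratios on the scale log2 of FPKM plus 1, Ifitm1 was 4.68 higher in miR-93-5p than in scr, the largest of 8420 genes, which is 30.1-fold in FPKM (23.2 to 41.0 from the bounds). Ifitm3 was 1.79 higher, or 3.49-fold (3.14 to 3.88). Ifitm2 was 0.72 higher, or 1.65-fold, and did not reach 2-fold. So 2 of the 3 genes were at least 2-fold higher, where 2.97% of all genes were, and nothing is read from that share, because this contrast helped to choose the genes. At least 2-fold lower were 3.86% of genes and none of the members. The median of all genes was 0.030.

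Against mutant all 3 were at least 2-fold higher in miR-93-5p, where 1.85% of all genes were. Ifitm1 was 2.78 higher on the log2 scale (7.10-fold, 6.06 to 8.39 from the bounds), Ifitm2 1.18 higher (2.28-fold, 2.14 to 2.43) and Ifitm3 2.08 higher (4.26-fold, 3.87 to 4.69). Mutant against scr separated the members. Ifitm1 was 1.90 higher in mutant (4.24-fold, 3.10 to 6.05), where 2.64% of genes were at least 2-fold higher, while the ratios of Ifitm2 and Ifitm3 were -0.46 and -0.29. The comparisons share libraries, so a high miR-93-5p value enters both of the ratios built on it.

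**Figure D2:**
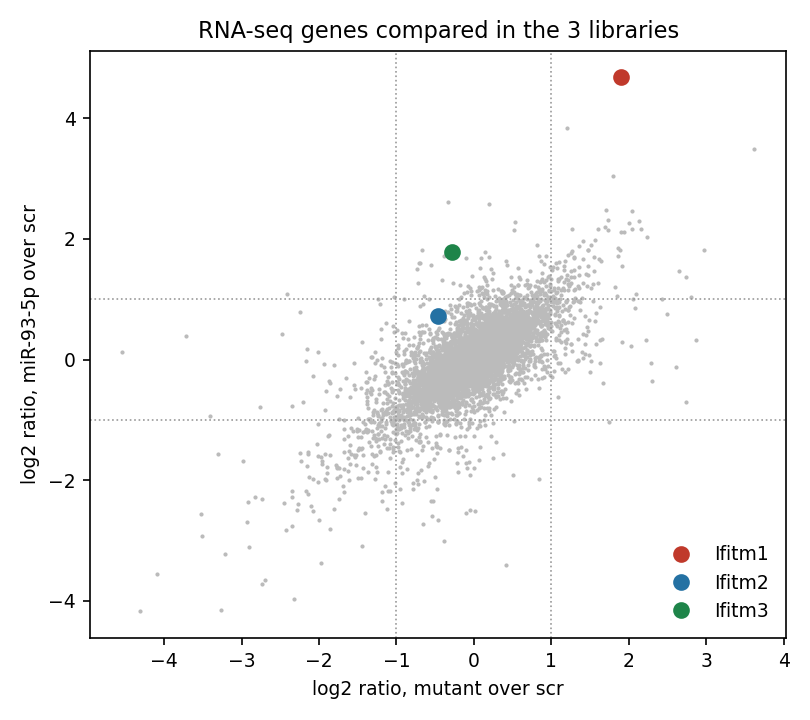
Log2 ratio of RNA-seq FPKM plus 1 for miR-93-5p over scr (vertical) against mutant over scr (horizontal) for the 8420 genes compared, with dotted lines at 2-fold. Both axes share the scr library; Ifitm1 lies highest of all genes at 4.68 and 1.90, and Ifitm2 and Ifitm3 lie above 0 vertically and below 0 horizontally.

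FPKM divides by the length of a transcript model that was assembled in each library alone. A second measure does not depend on that length: it is the fragment number at which counting error alone is as wide as the deposited bounds. It is called implied fragments here, is scaled to a median ratio of 1 and is compared with 10 fragments added. Before scaling, Ifitm1 had 79.1, 1261 and 359 implied fragments in scr, miR-93-5p and mutant. Its ratios on this measure were 3.80 for miR-93-5p over scr, 2.13 over mutant and 1.68 for mutant over scr, all still at least 2-fold higher, where 7.56%, 5.71% and 7.77% of all genes were on this measure.

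Ifitm3 had 1273, 1606 and 1943 implied fragments in scr, miR-93-5p and mutant. Its ratios became 0.29 for miR-93-5p over scr and 0.08 over mutant, so neither of its differences in FPKM reached 2-fold on this measure. Ifitm2 had 4785 in miR-93-5p and 3385 in mutant, a ratio of 0.85 in place of 1.18, and has no usable number in scr. In miR-93-5p Ifitm2 thus had more implied fragments than Ifitm3, so the higher place of Ifitm3 there rests on FPKM. Bounds also widen where fragments are split between transcripts or genes, and the implied number is then too small. Of 553 genes at least 2-fold apart between miR-93-5p and scr in FPKM, 310 were so in the same direction in implied fragments. The higher level of Ifitm1 in miR-93-5p held on both measures, and that of Ifitm2 and Ifitm3 at 2-fold rests on FPKM.

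**Figure D3:**
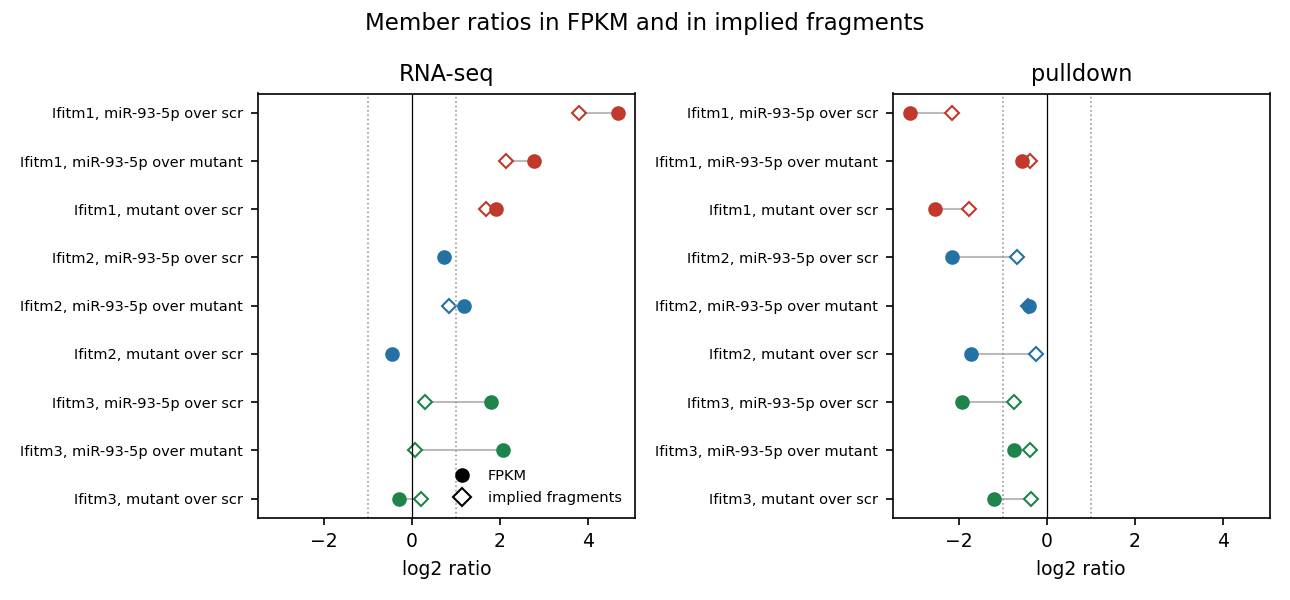
Log2 ratios of the 3 genes in FPKM (filled circles) and in scaled implied fragments (open diamonds) for each pair of conditions, in RNA-seq (left) and in the pulldown (right), with dotted lines at 2-fold. In RNA-seq Ifitm1 stays beyond 2-fold for all 3 pairs while Ifitm3 moves from 1.79 to 0.29 and from 2.08 to 0.08; Ifitm2 has no diamond where scr RNA-seq enters.

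The genes whose pattern over the 3 RNA-seq libraries was most like each member were found as the smallest distance in the log2 ratios of miR-93-5p over scr and of mutant over scr. For Ifitm1 these were Scara5, a scavenger receptor, at a distance of 1.09, the neutrophil chemokine gene Cxcl3 at 1.63 and the steroid-metabolising enzyme gene Akr1c18 at 2.09. Scara5 stood at 1.16, 29.9 and 3.98 FPKM in scr, miR-93-5p and mutant, while Cxcl3 stood at 4.55, 44.9 and 18.3. No gene lay close to Ifitm1. Akr1c18 differs from it in that its mutant level, 21.0 FPKM, was not below its miR-93-5p level, 19.0.

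The nearest to Ifitm2 were Atp5l, a subunit of ATP synthase, at 0.020, Parp14 at 0.029 and S100a1 at 0.053. Parp14, which is itself an interferon-response gene, stood at 3.27, 6.16 and 2.12 FPKM. Its scr bounds, 0 to 11.8 FPKM, are as unusable as those of Ifitm2, so this likeness rests on 2 scr values with no error. The nearest to Ifitm3 were Cenpw, a centromere protein gene, at 0.12, Cklf at 0.21 and the splicing factor gene Sf3a2 at 0.36. In implied fragments these 3 had log2 ratios of miR-93-5p over scr of -0.88, -0.80 and -1.58, while in FPKM they were 1.72, 1.69 and 1.56. The genes nearest to Ifitm3 in FPKM thus changed sign between the measures, which Ifitm3 itself did not.

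The other Ifitm genes placed on mm9 were near the limit of detection or without a locus in RNA-seq. Ifitm5, a gene of bone-forming cells, had an RNA-seq locus in miR-93-5p alone, at 0.723 FPKM (0.516 to 0.930). That locus spans 2514 bp and reaches beyond the gene of 1277 bp. A scr locus of 0.755 FPKM, chr7:148136353-148137570, overlaps it outside the gene, so the difference depends on where the loci end. Ifitm6 likewise had a locus in miR-93-5p alone, at 1.19 FPKM (0.615 to 1.77). Neither gene was overlapped by a locus in scr or mutant, where the lowest listed levels above 0 were 0.186 and 0.136 FPKM. Ifitm7, on chromosome 16, had no locus in any RNA-seq library. Ifitm10 had no position among the mm9 genes used, so no RNA-seq locus was sought for it. None of these 4 genes had a locus in the pulldown.

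The H3K4me3 peaks were read across the mm9 window chr7:148127290-148258018, from Pgghg through Ifitm5, Ifitm2, Ifitm1, Ifitm3 and Ifitm6 to B4galnt4. The window spans 130729 bp and the stretch from Ifitm5 to Ifitm6 spans 67930 bp. Ifitm2 and Ifitm1 are 11237 bp apart and are transcribed away from each other, and 39760 bp separate Ifitm1 from Ifitm3. The window held 4 H3K4me3 peaks in scr and 6 in miR-93-5p, and all 4 of scr overlapped a peak of miR-93-5p. Each peak has the authors' score, from 50 upward, with 3100 as a value shared by 8721 of 14595 peaks in scr and 8853 of 16173 in miR-93-5p. Scores are used only within a list.

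**Figure D4:**
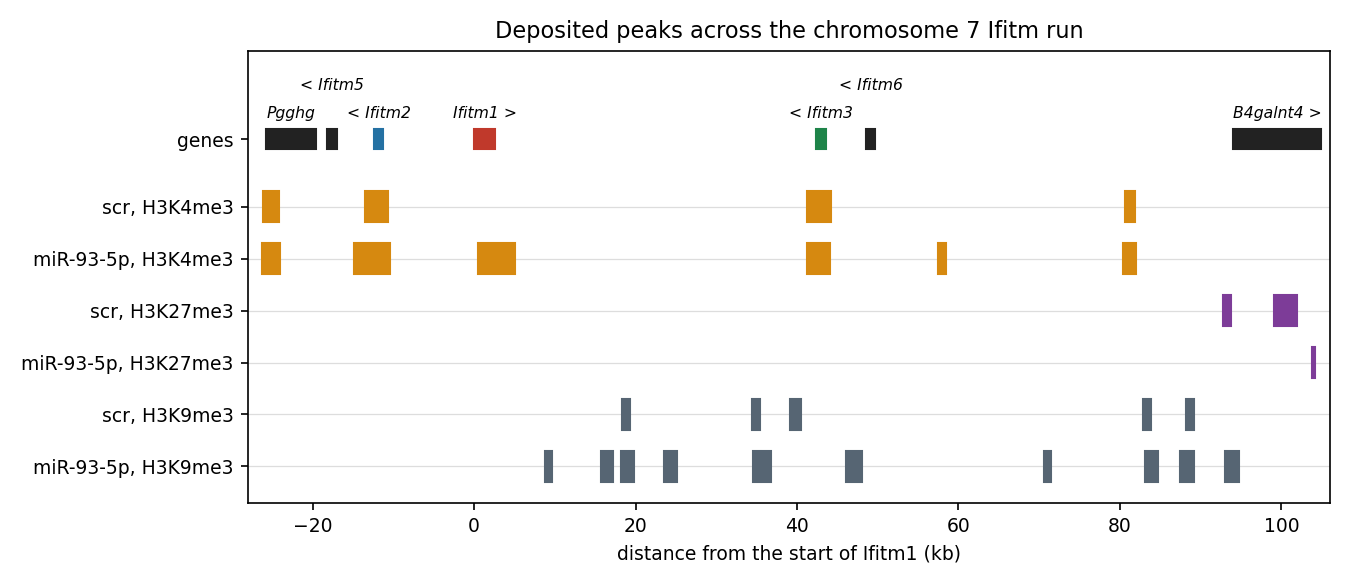
Genes (top, with arrowheads for the strand where known) and deposited peaks of H3K4me3, H3K27me3 and H3K9me3 in scr and miR-93-5p, drawn to scale against distance from the start of Ifitm1 in kb. The H3K4me3 peak at Ifitm1 is in the miR-93-5p row alone, no H3K27me3 peak lies between Ifitm5 and Ifitm6, and H3K9me3 has 5 peaks in scr and 11 in miR-93-5p, of which the pair closest to Ifitm3 on its left touches at this scale.

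Ifitm1 carried an H3K4me3 peak in miR-93-5p and none in scr. The peak lay at chr7:148153603-148158231, was 4629 bp wide and had a score of 2181.87, above 41.4% of the peaks in its list and wider than 93.2% of them. It began 483 bp inside the annotated mm9 gene start, covered 2122 bp or 81.5% of the gene and ran 2507 bp beyond the gene end. That mm9 start was not lined up with the RefSeq start printed above, so the peak is not placed against the printed bases. The 483 bp therefore do not show that the peak misses the RefSeq start. The RNA-seq loci began 876, 830 and 333 bp after the mm9 start in scr, miR-93-5p and mutant. The pulldown loci began within 62 bases of the RefSeq start. The assembled RNA-seq locus of Ifitm1 began 393 bp after the first base of the peak in scr, 347 bp after it in miR-93-5p and 150 bp before it in mutant. In scr the nearest H3K4me3 peak was 10651 bp from Ifitm1, the peak of Ifitm2. Of the 18479 genes, 239, or 1.29%, had such a peak in miR-93-5p and not in scr, against 1.00% the other way round.

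Ifitm2 carried H3K4me3 in both conditions. In scr the peak lay at chr7:148139571-148142468 (2898 bp) and in miR-93-5p at chr7:148138289-148142704 (4416 bp), both at the score of 3100. The miR-93-5p peak contained the whole of the scr peak and reached 1282 bp further on the side beyond the 3′ end of the gene and 236 bp further upstream. It was wider than 91.7% of its list, while the scr peak was wider than 67.5% of its own, and the median widths of the lists were 2274 and 2377 bp.

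Ifitm3 carried H3K4me3 in both conditions with nearly the same edges. The peak lay at chr7:148194413-148197279 (2867 bp) in scr and at chr7:148194307-148197265 (2959 bp) in miR-93-5p, sharing 2853 bp. Its score was 1040.16 in scr, above 30.5% of that list, and 2887.56 in miR-93-5p, above 43.9% of that list. Lists of different length make those positions no measure of change. A gene overlapped an H3K4me3 peak in 56.3% of cases in scr and 56.6% in miR-93-5p, and of the 3 members 2 did in scr and 3 in miR-93-5p.

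**Figure D5:**
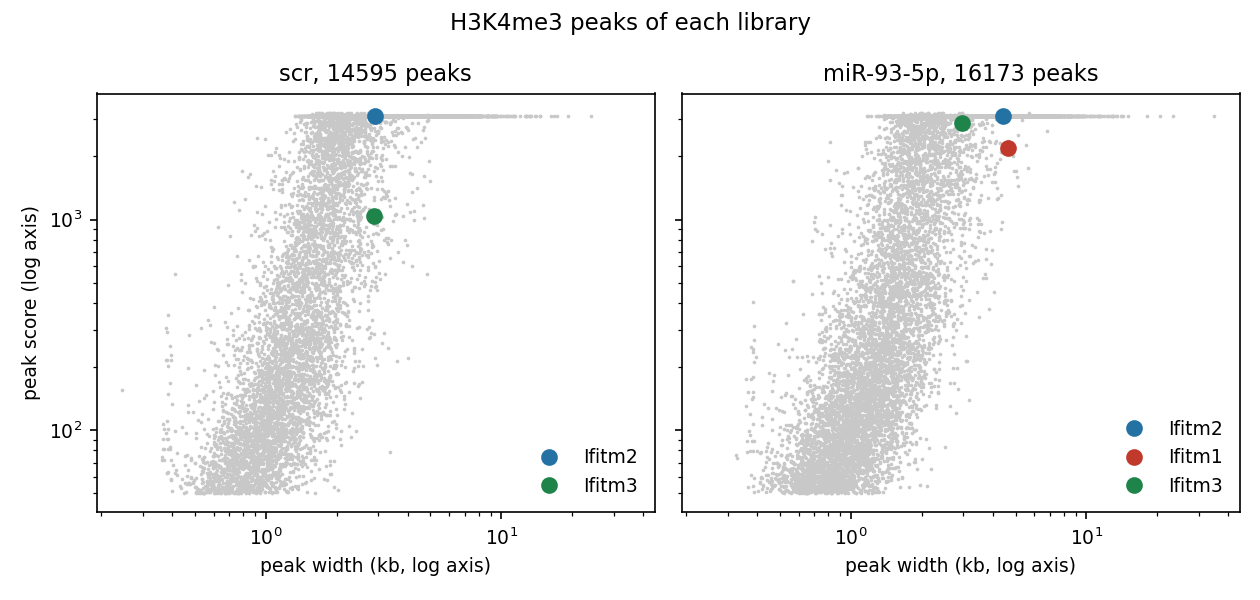
Score (log axis) against width (kb, log axis) of every H3K4me3 peak of scr (left) and miR-93-5p (right), with the peaks at the 3 genes coloured. Ifitm2 sits on the line of peaks at 3100 in both panels, Ifitm3 at 1040.16 and 2887.56, and Ifitm1 appears in miR-93-5p alone at a width of 4629 bp.

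The remaining H3K4me3 peaks of the window lay outside the family. Pgghg had one in both conditions, at chr7:148126975-148128896 in scr and chr7:148126812-148129088 in miR-93-5p, each with a score of 3100. An intergenic peak, 12206 and 12020 bp before B4galnt4, was also in both, at chr7:148233766-148234967 (216.48) and chr7:148233497-148235153 (357.44). A narrow peak of 933 bp at chr7:148210593-148211525, 7802 bp beyond Ifitm6, was in miR-93-5p alone, with a score of 81.72. Neither Ifitm5 nor Ifitm6 overlapped an H3K4me3 peak.

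Few genes with an H3K4me3 peak in miR-93-5p alone had a measured mRNA level. Of the 239 genes with the peak in miR-93-5p alone, 17 could be compared in RNA-seq. Among those, 3 had a level in miR-93-5p at least 2-fold above that in scr and 5 at least 2-fold below, where 2.97% and 3.86% of all genes did, with a median log2 ratio of -0.46. Ifitm1, which has the largest ratio of all 8420 genes, is necessarily the highest of them, so nothing is read from that. Of the 8288 measured genes with a peak in both, 238 were at least 2-fold above and 299 at least 2-fold below, with a median of 0.032.

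H3K27me3 was not called on the 5 Ifitm genes of the run in either condition, where 20.3% of all genes had such a peak in scr and 19.0% in miR-93-5p. No peak lay between Ifitm5 and Ifitm6. The nearest on the Nlrp6 side were 11415 bp before Ifitm5 in scr and 14277 bp before it in miR-93-5p. On the other side the B4galnt4 gene carried chr7:148252186-148255088 (178.52) in scr and chr7:148256898-148257311 (58.09) in miR-93-5p, which do not overlap. A further scr peak, chr7:148245925-148246907 (71.05), ended 266 bp before B4galnt4.

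H3K9me3 peaks lay between the Ifitm genes of the run and on none of those 5, where 15.4% of all genes had one in scr and 20.2% in miR-93-5p. The space between Ifitm1 and Ifitm3 held 3 peaks covering 3393 bp in scr and 6 covering 7592 bp in miR-93-5p. In scr they were chr7:148171451-148172489 (69.13), chr7:148187520-148188550 (64.38) and chr7:148192296-148193618 (69.10), the last 1867 bp from Ifitm3. The earlier pair was also called in miR-93-5p, at chr7:148171373-148172952 (117.48) and chr7:148187724-148188587 (55.85). The peak near Ifitm3 was not. The other 4 of miR-93-5p were chr7:148161922-148162733 (52.28), chr7:148168796-148170340 (97.53), chr7:148176607-148178255 (110.94) and chr7:148188789-148189930 (66.28).

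Beyond Ifitm3, miR-93-5p had a 1917 bp peak at chr7:148199244-148201160 (116.10), which ended 551 bp from Ifitm6, and scr had none there. Past Ifitm6, the scr peaks chr7:148235955-148236978 (56.28) and chr7:148241306-148242276 (76.28) overlapped chr7:148236211-148237801 (132.58) and chr7:148240528-148242360 (127.02) of miR-93-5p. In miR-93-5p alone lay chr7:148223680-148224579 (54.75) and chr7:148246165-148247929 (110.43), the latter over the start of B4galnt4. In the whole window H3K9me3 had 5 peaks in scr and 11 in miR-93-5p, of which 4 of scr and 4 of miR-93-5p overlapped. The lists as wholes held 15888 and 25879 peaks, a ratio of 1.63 against 2.20 in the window. At a score of at least 100 the window held 0 and 6. With 1 library per condition, a difference in the cells and one in depth or enrichment cannot be told apart.

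The genes around the family showed no single order of the 3 libraries. Pgghg, on the Ifitm5 side, stood at 10.0, 12.0 and 8.66 FPKM in scr, miR-93-5p and mutant. B4galnt4, on the Ifitm6 side, had RNA-seq loci in scr alone, at 1.13 and 0.868 FPKM. Beyond Pgghg, Psmd13, a proteasome subunit gene, was lower in miR-93-5p, at 89.1, 34.8 and 52.8 FPKM. The mutant locus also overlaps Sirt3, so that value is not of Psmd13 alone. Nlrp6 had no RNA-seq locus and carried 5 H3K27me3 peaks in scr and 3 in miR-93-5p. Beyond B4galnt4, Sigirr, an inhibitor of interleukin-1 receptor and Toll-like receptor signalling, was higher in both other libraries than in scr, at 18.9, 62.5 and 43.3 FPKM. These values are sums over the 2 loci that overlapped Sigirr in each library. Sigirr had 1 H3K4me3 peak in each condition.

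In the pulldown all 3 genes were highest in scr and lowest in miR-93-5p. The loci of the pulldown lie on GRCm38 and the RNA-seq loci on mm9. Ifitm1 stood at 65.8 FPKM (58.3 to 73.2) in scr, 6.71 (4.57 to 8.84) in miR-93-5p and 10.4 (8.29 to 12.5) in mutant. The bounds of miR-93-5p and mutant overlap, and both lie below scr. Ifitm2 stood at 314 FPKM (297 to 331), 70.2 (64.2 to 76.1) and 93.7 (88.6 to 98.8), and Ifitm3 at 196 FPKM (183 to 210), 50.6 (44.9 to 56.2) and 85.0 (78.8 to 91.2). For Ifitm2 and Ifitm3 the 3 libraries are apart beyond their bounds, with miR-93-5p lowest.

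The log2 ratio of miR-93-5p over scr was -3.11 for Ifitm1 (9.80-fold lower), -2.15 for Ifitm2 (4.48-fold lower) and -1.94 for Ifitm3 (3.88-fold lower). All 3 passed 2-fold, where 33.5% of the 5246 pulldown genes were at least 2-fold lower, and the median of all genes was -0.48. After rescaling to a median of 0 they were -2.64, -1.67 and -1.46. In implied fragments they were -2.16, -0.68 and -0.75, so Ifitm1 alone of the 3 stayed beyond 2-fold on that measure, where 22.6% of genes were at least 2-fold lower.

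The mutant pulldown was also below scr for all 3, with log2 ratios of -2.55, -1.73 and -1.20 for Ifitm1, Ifitm2 and Ifitm3, where 22.9% of genes were at least 2-fold lower. In implied fragments these were -1.78, -0.25 and -0.37, and 19.4% of genes were at least 2-fold lower. Between miR-93-5p and mutant none of the 3 reached 2-fold, with -0.57, -0.41 and -0.74 against a median of -0.43, where 26.5% of genes lay at least 2-fold under mutant. The members were thus not higher in the pulldown of miR-93-5p than in that of mutant or scr. Whether their 3′ ends hold a site for the seed was not analysed here.

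The pulldown and RNA-seq tables were normalised separately, so a ratio of them is set beside the same ratio for the 4510 genes measured in both. For Ifitm1 the pulldown FPKM per RNA-seq FPKM was 12.2 in scr and 0.0412 in miR-93-5p, with 0.454 in mutant, where the medians of all genes were 0.827, 0.564 and 0.776. That places Ifitm1 above 99.8% of genes in scr and above 0.510% in miR-93-5p. Ifitm2 had 2.05, 0.277 and 0.843 and Ifitm3 2.33, 0.172 and 1.24. All 3 were thus above the median in scr and below it in miR-93-5p. For Ifitm1 both levels differed between scr and miR-93-5p, the pulldown level being lower and the RNA-seq level higher in miR-93-5p.

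The interferon-response list was described in the same libraries. Of its 60 genes, 30 could be compared, and miR-93-5p exceeded scr at least 2-fold in 2 and lay at least 2-fold below it in 1, where 2.97% and 3.86% of all genes did. The median log2 ratio of the list was 0.22 against 0.030 for all genes. Isg15, Ifit1, Ifit3, Irf7 and Rsad2, which interferon strongly induces, could not be compared, and Ifit1 and Rsad2 had no locus in any RNA-seq library. A locus over Ifit3 stood at 9.78 FPKM in scr and 0.374 in mutant, with none in miR-93-5p. Bst2 was higher, the gene of tetherin, another membrane protein that restricts enveloped viruses, at 42.8, 102 and 67.9 FPKM in scr, miR-93-5p and mutant. Also higher was the feedback inhibitor gene Socs1, at 1.19, 4.52 and 3.01. The lower gene was Ifit2, at 17.9, 5.80 and 5.97. In implied fragments 29 genes could be compared, and 2 were at least 2-fold higher and 3 lower, where 7.56% and 7.68% of all genes were. Bst2 and Socs1 were the higher ones, and Ifit2, Usp18 and B2m the lower, with log2 ratios of -1.22, -2.34 and -1.43. In FPKM Usp18 was also lower, at -0.86, while B2m was higher, at 0.99. Stat2, a subunit of the interferon-activated factor ISGF3, stood at 7.48, 3.25 and 3.04 FPKM, a log2 ratio of -0.997, just inside 2-fold.

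Against mutant, 2 genes of the list were at least 2-fold higher in miR-93-5p and 0 lower, where 1.85% and 1.77% of all genes were. For mutant against scr 1 was higher and 3 lower, where 2.64% and 3.63% of all genes were. In the pulldown 22 genes could be compared. Of those, miR-93-5p exceeded scr at least 2-fold in 2, where 11.8% of all genes did, and lay at least 2-fold below it in 9, where 33.5% did, with a median of -0.39 against -0.48 for all genes. Against mutant 13 were below and 0 above, where 26.5% and 4.88% of all genes were, with a median of -1.24 against -0.43. For mutant over scr 8 were above and 2 below, where 21.8% and 22.9% of all genes were, with a median of 0.78 against -0.056. In implied fragments these counts were less one-sided. Against mutant 7 were below and 3 above, with a median of -0.37. For mutant over scr 6 were above and 5 below, where 19.4% of all genes were below, with a median of 0.60. Between miR-93-5p and scr 5 were above and 5 below, where 22.6% of all genes were below. The other shares of all genes on this measure are not given here.

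The genes that act on or with IFITM proteins differed less in FPKM than in implied fragments. Of the 8 listed, 7 could be compared and 0 were 2-fold apart in the FPKM of their matched loci for any pair of conditions. That count depends on the locus taken. Summed over all overlapping loci, Setd7 stood at 8.51, 20.5 and 7.32 FPKM in scr, miR-93-5p and mutant. Zdhhc20 stood at 9.75, 14.8 and 5.16 when summed in that way. Vapa, which encodes an IFITM3-binding protein of the endoplasmic reticulum, stood at 74.5, 73.1 and 94.2 FPKM in scr, miR-93-5p and mutant. Nedd4, a ubiquitin ligase gene for IFITM3, stood at 229, 229 and 218. The palmitoyltransferase genes Zdhhc20 and Zdhhc1 stood at 6.06, 7.95 and 5.16 and at 4.57, 6.17 and 5.55.

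Setd7, whose product methylates IFITM3, stood at 8.51, 12.2 and 7.32 FPKM, the phosphatase gene Ptpn1 at 18.4, 15.2 and 16.6, and Bsg, which encodes basigin, at 366, 443 and 342. In implied fragments Zdhhc1 and Setd7 had log2 ratios of miR-93-5p over scr of -2.22 and -2.75, where 7.68% of all genes were at least 2-fold lower, while 0 of the 7 were 2-fold higher. Against mutant 1 was at least 2-fold higher in miR-93-5p and 3 lower, where 5.71% and 6.22% of all genes were. These were Bsg at 2.86, and Nedd4 at -4.03, Setd7 at -2.46 and Zdhhc1 at -2.31. For mutant over scr 1 was higher and 2 lower, where 7.77% and 7.22% of all genes were, Nedd4 at 3.98 and Bsg at -2.80 and Ptpn1 at -1.17. The measures thus differ for 5 of the 7, and the near-equal FPKM of Nedd4 and Bsg above rests on 1 of them. In the pulldown 4 could be compared. Bsg at 836, 176 and 516 FPKM had its lowest level in miR-93-5p, as did the matched locus of Zmpste24 at 5.27, 2.13 and 10.8. Both were at least 2-fold under scr on the log2 scale used, where 33.5% of all genes were. In miR-93-5p 2 loci overlapped Zmpste24, with a sum of 16.5 FPKM, so its lower level there depends on the locus taken. Vapa stood at 55.6, 47.0 and 48.9 there and Ptpn1 at 9.57, 6.15 and 6.25.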

How the data were processed

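The 3 RNA-seq and 3 pulldown files hold FPKM with lower and upper bounds per locus, deposited by the authors, per the file headers. The 6 peak lists hold a score per peak and library, also deposited by the authors. TopHat2, Cufflinks, Cuffdiff, CASAVA 1.4, Bowtie, MACS and mm9 are named in the submitters' processing notes, without settings. Samples were grouped by their labels, and the 2 input samples were not analysed here.

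Positions of mm9 genes, listed in the pulldown files, gave the names of RNA-seq loci and peaks, with 1 base added to each start. Pulldown loci were named through a GRCm38.p6 RefSeq table, since they lie on that build. A locus and a gene were matched as each other's best overlap with at least 0.5 of their joint length shared. Ifitm2 misses this in the pulldown and has the value of its only overlapping locus. Comparisons took log2 of FPKM plus 1 over genes averaging 1 FPKM or more, and 2-fold was the limit. Implied fragments are the square of 2 times FPKM over the distance to the upper bound, with at least 3 per library. Peaks were assigned to genes they overlapped by 1 bp. With 1 library per condition no test was run.

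The members, lists and rules were chosen with earlier results of these data known. Named genes were the Ifitm genes, the 3 nearest to each member, up to 4 interferon-list genes with the largest ratio over scr, all measured partners and the described neighbours. Some interferon-list genes that could not be compared, or that were 2-fold apart in implied fragments, were named as well. The alternatives were other pseudocounts, overlaps, scalings, filters and peak limits. Python 3.11.15, pandas 2.3.3, numpy 2.4.6, Biopython 1.88 and matplotlib 3.10.9 were used, and the matching and ratios were tested on simulated data. One marker of the leukocyte list is not reported here.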

Additional observations from a re-analysis of the deposited data

Results flagged for a closer look

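The RNA-seq and pulldown ratios of miR-93-5p over scr had opposite signs for all 3 genes. The log2 ratio in RNA-seq less that in the pulldown was 7.79 for Ifitm1 (4.68 and -3.11), 2.87 for Ifitm2 (0.72 and -2.15) and 3.72 for Ifitm3 (1.79 and -1.94). With 1 library each, the difference was not tested, and the tables were normalised separately.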

How the results depend on the processing

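No paired analysis was possible because each condition had 1 library per assay, and for the same reason no library could be left out. No ratio changed sign under any alternative with a value except those of Ifitm2 and Ifitm3 named here. In scaled implied fragments the RNA-seq log2 ratios were 3.80 (over scr) and 2.13 (over mutant) for miR-93-5p at Ifitm1, 0.85 over mutant at Ifitm2, and 0.29 and 0.077 at Ifitm3, with 0.21 in place of -0.29 for mutant over scr at Ifitm3. In the pulldown they were -2.16, -0.68 and -0.75 for miR-93-5p over scr at Ifitm1, Ifitm2 and Ifitm3, -1.78, -0.25 and -0.37 for mutant over scr, and -0.38 for miR-93-5p over mutant at Ifitm3. The ratios of Ifitm2 over scr in RNA-seq could not be computed on this measure. Rescaling the pulldown to a median of 0 gave -1.67 and -1.46 for miR-93-5p over scr at Ifitm2 and Ifitm3, and 0.012 in place of -0.41 and -0.31 in place of -0.74 over mutant.

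Genes at least 2-fold apart in RNA-seq numbered 575 for miR-93-5p and scr, 305 for miR-93-5p and mutant and 528 for mutant and scr. With an overlap of 0.9 they numbered 353, 167 and 310, and in implied fragments 1238, 969 and 1217. In the pulldown 2377, 1646 and 2346 became 1413, 1033 and 1410 with an overlap of 0.9. At a peak score of at least 100 the window held 1 H3K27me3 peak in scr and 0 in miR-93-5p, and 0 and 6 H3K9me3 peaks. Within 2 kb of a member, scr had 1 H3K9me3 peak. A pseudocount of 0.1 left the direction and the side of 2-fold of all 18 member ratios. It kept the 6 gene counts within 1.5 times, at 743, 406 and 700 in RNA-seq and 2566, 1825 and 2525 in the pulldown. Summing all overlapping loci could not change the member ratios, because each member had 1 overlapping locus in every library. The causes were not tested. Depth limits Ifitm1 most, with 79.1 implied fragments in scr RNA-seq and 39.5 in the miR-93-5p pulldown.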
